A study of Mus musculus with 11 samples.

Results

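The genes that supply the cytosol and the mitochondria with initiation factors and charged tRNAs were followed in nascent RNA of mouse embryonic stem cells treated with an siRNA against Zc3h4. They are the protein-coding genes of the exon table whose symbols begin with Eif and a digit, and the aminoacyl-tRNA synthetase genes with a symbol of an amino acid letter followed by ars, with or without a final digit, plus Eprs. This gave 83 of 13088 genes, 12009 of which are protein-coding. They comprised 49 initiation factor genes, 18 cytosolic synthetases and 16 mitochondrial synthetases, the last recognised by the final digit of the symbol. The Eif symbols take in regulators such as the eIF2 alpha kinases and the eIF4E-binding proteins, and Gars and Kars, classed here as cytosolic, are known to encode the mitochondrial enzyme as well. Upstream antisense RNA (uaRNA), the short-lived transcript that leaves a promoter in the direction opposite to the gene, was measured at 49 of these genes out of 5867 uaRNA regions in all. By class these were 30 initiation factors, 10 cytosolic synthetases and 9 mitochondrial synthetases. Several genes that the naming rule would take, among them Eif4e, Eif4a1, Eif4a2, Eif2s3y and Rars2, were not analysed here. The rule does not take Farsa and Farsb, the subunits of the cytosolic phenylalanyl enzyme, so the cytosolic class lacks that enzyme.

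ZC3H4 acts with WDR82 in Restrictor, a complex that ends the transcription of many noncoding RNAs early, and the study asked how sequence bears on that ending. All libraries came from wild-type F121-9 cells, an established female mouse embryonic stem cell line of CAST/129 hybrid background, kept in serum-free medium with LIF and inhibitors of MEK and GSK3. Cells received 30 nM siRNA against Zc3h4 (siZC3H4, replicates 2 and 3, n = 2) or 30 nM non-targeting siRNA (siNT, replicates 1, 2 and 3, n = 3), and were harvested 47 h after transfection. In transient transcriptome sequencing (TT-seq) the RNA made during a 20 min exposure to 500 µM 4-thiouridine was pulled down and sequenced, so exon reads here stand for newly made RNA and not for the mRNA pool. Each value is a read number scaled by the depth factor that the authors applied to its library.

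Before that division the siZC3H4 libraries held 26548710 and 16173640 exon reads and 2648683 and 1448879 uaRNA reads. The siNT libraries held 14840637, 17563244 and 18479834 exon reads and 996927, 1031703 and 1195995 uaRNA reads. Nascent exon reads of Zc3h4 itself were 7285 and 6718 in the libraries labelled siZC3H4, against 3465, 3610 and 3363 in the siNT libraries, a log2 fold change of 1.01 ± 0.11 (SE; limma, adjusted p = 0.00431). The targeted gene was therefore higher in nascent RNA of the libraries labelled siZC3H4; mature mRNA and protein were not measured, and every direction below rests on these labels. All 7 embryonic stem cell markers looked for were present, with summed exon reads of 63046 to 78703 in siZC3H4 libraries and 74057 to 90770 in siNT libraries. Of the fibroblast list 3 of 5 genes were analysed, with sums of 30350 to 31587 in siZC3H4 libraries against 29217 to 34705 in siNT libraries, nearly all from Fn1. Neural markers Pax6, Sox1 and Tubb3 summed to 1141 to 1520 in siZC3H4 libraries and 686 to 1018 in siNT libraries, and 3 of 5 mesoderm and endoderm markers to 214 to 387 against 172 to 327; their part in the results was not tested. In bulk samples fewer cells of a type and less RNA per cell cannot be told apart. The labels do not say that replicates were separately grown cultures, so the p-values measure the spread between these samples, which may be technical.

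Translation of a cytosolic mRNA begins when eIF2 carries the initiator tRNA to the small ribosomal subunit, eIF3 holds the assembly together, and eIF4F brings in the capped mRNA. Aminoacyl-tRNA synthetases attach each amino acid to its tRNA; most exist as a cytosolic enzyme and a separate, nuclear-encoded enzyme imported into mitochondria. The transcription factor ATF4 is known to raise many cytosolic synthetase genes and Eif4ebp1 when phosphorylation of eIF2 alpha slows initiation. Restrictor acts on short, poorly spliced transcripts such as uaRNAs, which share a promoter with a coding gene.

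Promoter sequences are given for the genes on which the results turn: Ears2 and Iars2, whose exon reads rose; Eif4b and Eif2b2, whose uaRNAs rose most; and Tars, whose uaRNA had a log2 fold change of -0.01, beside Aars, the other promoter with an ATF4-type element. Each holds the 250 bases before the RefSeq start in GRCm38.p6, read 5′ to 3′ in the direction of the gene. That start lay 12 (Tars) to 178 (Eif4b) bases from the deposited gene start. Capitals mark matches on either strand to the C/EBP-ATF response element TGATGCAA, the CCAAT box and the ETS motif CCGGAAG, and matches on the antisense strand to GGTAAG (5′ splice site) and AATAAA (poly(A) signal).
Ears2 chr7:122067087-122067336 minus strand: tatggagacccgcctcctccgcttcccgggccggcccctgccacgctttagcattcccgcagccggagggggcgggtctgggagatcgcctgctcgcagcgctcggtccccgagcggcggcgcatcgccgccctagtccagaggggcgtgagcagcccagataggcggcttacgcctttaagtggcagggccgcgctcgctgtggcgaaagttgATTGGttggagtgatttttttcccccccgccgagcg
Iars2 chr1:185329402-185329651 minus strand: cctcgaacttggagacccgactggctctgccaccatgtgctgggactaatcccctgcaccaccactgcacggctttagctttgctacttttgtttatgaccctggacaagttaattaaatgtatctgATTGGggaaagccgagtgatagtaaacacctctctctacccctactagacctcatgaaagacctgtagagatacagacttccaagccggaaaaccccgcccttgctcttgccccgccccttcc
Eif4b chr15:102073523-102073772 plus strand: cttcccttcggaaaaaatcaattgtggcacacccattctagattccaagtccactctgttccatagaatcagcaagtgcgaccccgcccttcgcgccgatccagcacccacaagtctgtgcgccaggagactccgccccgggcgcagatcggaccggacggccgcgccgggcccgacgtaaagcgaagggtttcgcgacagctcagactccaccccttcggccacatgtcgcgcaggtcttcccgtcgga
Eif2b2 chr12:85219231-85219480 plus strand: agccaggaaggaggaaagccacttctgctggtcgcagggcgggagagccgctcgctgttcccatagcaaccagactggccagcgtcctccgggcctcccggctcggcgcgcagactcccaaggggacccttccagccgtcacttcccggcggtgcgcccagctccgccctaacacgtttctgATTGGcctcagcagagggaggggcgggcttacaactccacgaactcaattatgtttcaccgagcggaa
Tars chr15:11399659-11399908 minus strand: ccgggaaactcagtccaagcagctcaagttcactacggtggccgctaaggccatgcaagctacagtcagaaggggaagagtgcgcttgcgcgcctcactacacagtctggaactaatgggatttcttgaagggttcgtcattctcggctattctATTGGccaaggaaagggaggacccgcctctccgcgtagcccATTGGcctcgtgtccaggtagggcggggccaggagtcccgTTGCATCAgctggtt
Aars chr8:111033592-111033841 plus strand: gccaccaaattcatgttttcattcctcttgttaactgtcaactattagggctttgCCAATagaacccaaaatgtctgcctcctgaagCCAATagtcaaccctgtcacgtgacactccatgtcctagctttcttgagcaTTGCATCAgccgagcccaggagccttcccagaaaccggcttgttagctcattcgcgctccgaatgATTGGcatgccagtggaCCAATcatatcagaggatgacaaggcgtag

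RefSeq promoters were matched for 64 of the 83 genes (77.1%), 40 of them initiation factors, 13 mitochondrial synthetases and 11 cytosolic synthetases. Their RefSeq starts lay up to 982 bases (Eif4a3l1) from the deposited gene start. TGATGCAA stood in 0.501% of 9590 protein-coding promoters, in 0 of the 40 initiation factor promoters, in 0 of the 13 mitochondrial synthetase promoters and in those of Tars and Aars among the 11 cytosolic ones. With 61.1% of cytosolic synthetases matched, no share is drawn for that class. The CCAAT box was in 11 of 40 initiation factor promoters (27.5%) and 5 of 13 mitochondrial synthetase promoters (38.5%), against 37.7% of all. CCGGAAG was in 27.5% and 23.1% of those promoters against 14.9% of all. On the antisense strand GGTAAG was in 1 of 40 initiation factor promoters (2.75% of all promoters) and AATAAA in 1 of 40 (4.18% of all), with 0 of 13 mitochondrial synthetase promoters for either. These matches describe the letters in a short window, and in the sequences shown above no motif overlapped another.

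Initiation factors and cytosolic synthetases were among the more heavily transcribed genes, and mitochondrial synthetases were closer to the typical gene. On the scale of exon reads per kb of transcript, the median level was 1137 in siZC3H4 and 1200 in siNT libraries for initiation factors, and 1584 against 1673 for cytosolic synthetases. Mitochondrial synthetases had a median of 377 in siZC3H4 and 351 in siNT libraries, beside 215 and 210 for all protein-coding genes. Eif1, which keeps the scanning ribosome from starting at a wrong codon, had the highest level of all 83 genes, 10592 ± 1172 reads per kb in siZC3H4 libraries and 11525 ± 2253 in siNT libraries (SD, n = 2 and 3). Eif5a, a factor that helps ribosomes past difficult peptide bonds, followed at 8060 ± 1327 against 7884 ± 852, and Eif4ebp1, the inhibitor that holds eIF4E away from eIF4G, at 6421 ± 777 against 7089 ± 518. Among cytosolic synthetases Aars, the alanyl enzyme, was highest at 4360 ± 937 against 4585 ± 705, followed by Gars, the glycyl enzyme, at 2856 ± 443 against 3340 ± 137. Cars, the cysteinyl enzyme, had 2824 ± 444 against 2919 ± 117, overlapping with Gars in siZC3H4 libraries. Among mitochondrial synthetases Tars2, the threonyl enzyme, led with 1434 ± 35.2 in siZC3H4 and 1066 ± 77.8 in siNT libraries. Yars2, the tyrosyl enzyme, followed at 1076 ± 131 against 1017 ± 165, a level that does not differ from that of Tars2 in siNT libraries beyond their spread.

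In exon reads 2 of the 83 genes rose in siZC3H4 libraries, both of them mitochondrial synthetases, and 0 fell. Over all 12482 genes tested with limma, 2.22% rose and 0.144% fell, so the count over all 83 genes was close to the background. By class, 0 of 49 initiation factors, 0 of 18 cytosolic synthetases and 2 of 16 mitochondrial synthetases passed an adjusted p of 0.05. At an unadjusted p under 0.05 the counts were 0 higher and 1 lower of 49 initiation factors, and 0 and 1 of 18 cytosolic synthetases. They were 7 and 0 of 16 mitochondrial synthetases, beside 1367 and 548 of all 12482 genes. edgeR on the recovered whole reads also called 0 initiation factors and 0 cytosolic synthetases, and so did DESeq2. Of the mitochondrial synthetases edgeR called 2 and DESeq2 4. With the replicate number as a block in limma's fit, 2 initiation factors and 3 cytosolic synthetases fell and 8 mitochondrial synthetases rose. In that fit 6.65% of all genes fell and 12.3% rose. All 83 genes passed the filter of a mean of 10 reads over the 5 libraries.

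**Figure D1:**
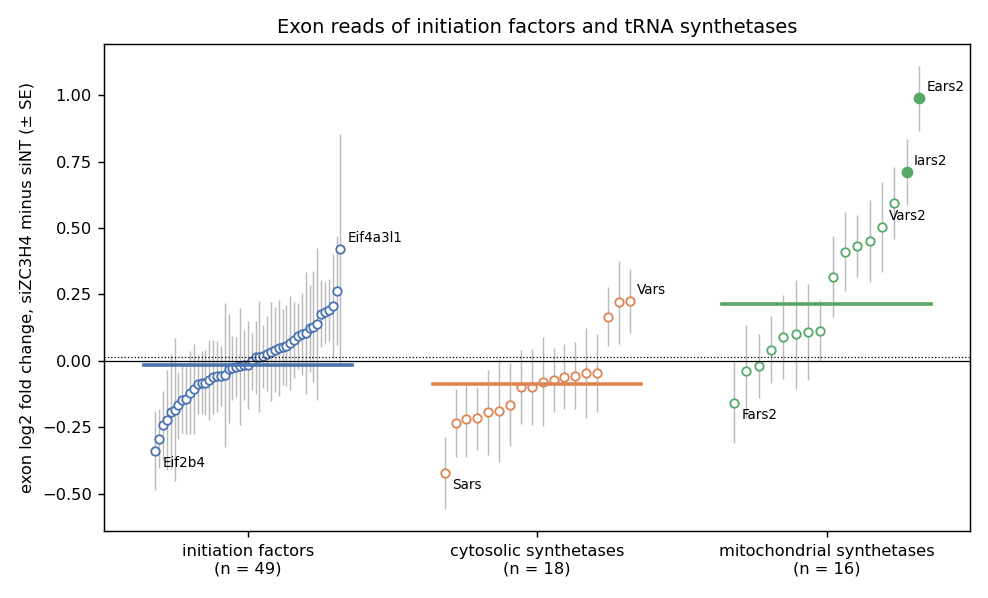
Exon log2 fold change, siZC3H4 minus siNT, of each initiation factor, cytosolic synthetase and mitochondrial synthetase gene, with limma's standard error as bars; filled points are past an adjusted p of 0.05, coloured lines are class medians and the dotted line is the median of all genes. Ears2 at 0.99 and Iars2 at 0.71 are the filled points, and the class medians are -0.01, -0.09 and 0.21.

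Ears2 encodes the mitochondrial glutamyl-tRNA synthetase and lies at chromosome 7:122038821-122067001 on the minus strand (mm10). Its exon reads were 1558 and 1646 in siZC3H4 libraries, against 797, 809 and 816 in siNT libraries. The groups did not overlap, and the lowest siZC3H4 library was far above the highest siNT library relative to the spread within either group. The means were 1602 ± 62.4 and 807 ± 9.45 (SD, n = 2 and 3), a log2 fold change of 0.99 ± 0.12 (SE; limma, adjusted p = 0.00593), or 1.98-fold. The call was lost when siNT replicate 1 (adjusted p = 0.0639), siZC3H4 replicate 2 (0.0783) or siZC3H4 replicate 3 (0.0516) was left out of limma's fit, while the log2 fold change stayed between 0.95 and 1.03. Ears2 starts 459 bases from Ubfd1, a gene on the opposite strand, which had a mean of 2671 reads in siZC3H4 and 3432 in siNT libraries and a log2 fold change of -0.35 (limma, adjusted p = 0.312).

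Iars2 encodes the mitochondrial isoleucyl-tRNA synthetase and lies at chromosome 1:185286662-185329283 on the minus strand. Its exon reads were 2546 and 2163 in siZC3H4 libraries, against 1414, 1483 and 1402 in siNT libraries. Both siZC3H4 libraries were above every siNT library, with replicate 2 the higher. The log2 fold change was 0.71 ± 0.12 (SE; limma, adjusted p = 0.0225), or 1.64-fold. Here too the call was lost when siNT replicate 1 (adjusted p = 0.137), siZC3H4 replicate 2 (0.326) or siZC3H4 replicate 3 (0.0628) was left out, with log2 fold changes between 0.59 and 0.83 by limma. The uaRNA of Iars2 had 493 and 532 reads in siZC3H4 libraries against 390, 457 and 436 in siNT libraries, a log2 fold change of 0.26 ± 0.22 that did not pass the test (limma, adjusted p = 0.287). Within a library the uaRNA reads of Iars2 relative to its exon reads were, on the log2 scale, -2.36 and -2.02 in siZC3H4 libraries against -1.86, -1.69 and -1.68 in siNT libraries. This ratio was lower in both siZC3H4 libraries, with a difference of -0.45 ± 0.25 that did not pass the test (limma, adjusted p = 0.118).

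The other 14 mitochondrial synthetases did not pass the test. Vars2, the valyl enzyme, had a log2 fold change of 0.50 ± 0.17 (adjusted p = 0.185), Nars2, the asparaginyl enzyme, 0.45 ± 0.15 (0.189), and Tars2, the threonyl enzyme, 0.43 ± 0.12 (0.101), all by limma. Sars2, the seryl enzyme, stood at 0.41 ± 0.15 and Pars2, the prolyl enzyme, at 0.32 ± 0.15 (limma, adjusted p = 0.218 and 0.376). In both siZC3H4 libraries 9 of the 16 were higher than in every siNT library, against 19.5% of all genes, and 0 were lower in both, against 12.8%. Among the 9, beside Ears2 and Iars2, were Vars2, Nars2, Tars2, Sars2, Pars2 and Mars2, the methionyl enzyme. The remaining 7 overlapped between groups and had log2 fold changes of -0.16 (Fars2, phenylalanyl) to 0.11 (Wars2, tryptophanyl).

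**Figure D2:**
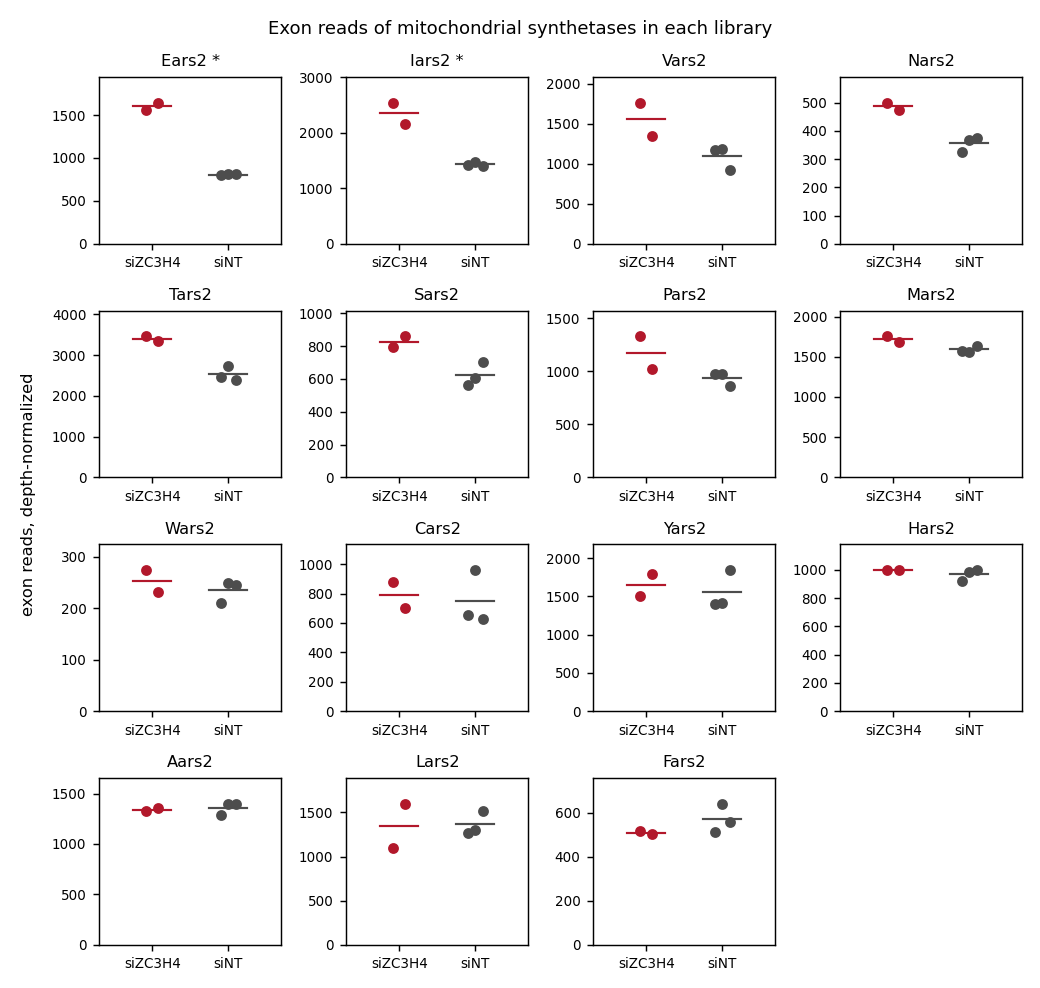
Depth-normalized exon reads of 15 of the 16 mitochondrial synthetases in the siZC3H4 libraries (left, 2 points) and the siNT libraries (right, 3 points), with a line at each group's mean; an asterisk marks an adjusted p under 0.05. The panels run from the highest to the lowest fold change, and the groups stand apart in the first 7 panels and in that of Mars2.

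The median exon log2 fold change over the 16 mitochondrial synthetases was 0.21, with 13 of 16 above 0, beside a median of 0.01 and 52.5% above 0 over all genes. Per library, deviations were taken on the log2 scale from the midpoint between each gene's siZC3H4 and siNT means. The median deviation of the class was 0.19 and 0.11 in siZC3H4 libraries and -0.19, -0.10 and -0.09 in siNT libraries. Both siZC3H4 libraries were above all siNT libraries, and the difference of 0.28 compares with a pooled SD of 0.06 between libraries of a group. Leaving out any single library gave a median log2 fold change of 0.22 to 0.32. Of 12 other nuclear genes of mitochondrial translation 0 were called by limma, 6 were above 0 and the median was 0.01; 2 were higher at an unadjusted p under 0.05, and edgeR called 0 and DESeq2 2, Mtrf1 and Gatb. Mtrf1, a mitochondrial release factor, had a log2 fold change of 0.79 (limma, adjusted p = 0.104), and Gatb, a subunit of the amidotransferase that makes mitochondrial glutaminyl-tRNA, 0.73 (0.0658).

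Of the cytosolic synthetases, none of which was called in exon reads without a replicate block, 15 of 18 had a log2 fold change below 0. Sars, the cytosolic seryl enzyme, was lowest, with 3789 and 4485 exon reads in siZC3H4 libraries against 5668, 4863 and 6110 in siNT libraries. The groups did not overlap, but the log2 fold change of -0.42 ± 0.14 did not pass the test (limma, adjusted p = 0.167). Gars stood at -0.23 ± 0.13 (limma, adjusted p = 0.441) and Wars, the tryptophanyl enzyme, at -0.22 ± 0.12 (0.451), each lower in both siZC3H4 libraries than in every siNT library. The genes above 0 were Vars (valyl, 0.22), Dars (aspartyl, 0.22) and Mars (methionyl, 0.17), and Vars and Mars were higher in both siZC3H4 libraries than in every siNT library. In all, 2 of 18 were apart on the high side and 3 of 18 on the low side (11.1% and 16.7%), against 19.5% and 12.8% of all genes.

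The class median of -0.09 depended on which libraries were compared. Per library the median deviation of the 18 genes was -0.21 in siZC3H4 replicate 2 and 0.10 in siZC3H4 replicate 3, against -0.05, 0.01 and 0.20 in siNT replicates 1, 2 and 3. The siZC3H4 libraries lay on either side of siNT replicates 1 and 2, and the difference of -0.11 was smaller than the pooled SD of 0.16. Without siZC3H4 replicate 2 the median log2 fold change was 0.06, and without siZC3H4 replicate 3 it was -0.26. The median of mitochondrial synthetases minus that of cytosolic ones was 0.30, and 0.16 without siZC3H4 replicate 2 or 0.56 without siZC3H4 replicate 3, so its direction held and its size rested on those libraries. Per library that difference was 0.40 and 0.01 in siZC3H4 libraries and -0.14, -0.11 and -0.29 in siNT libraries.

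**Figure D3:**
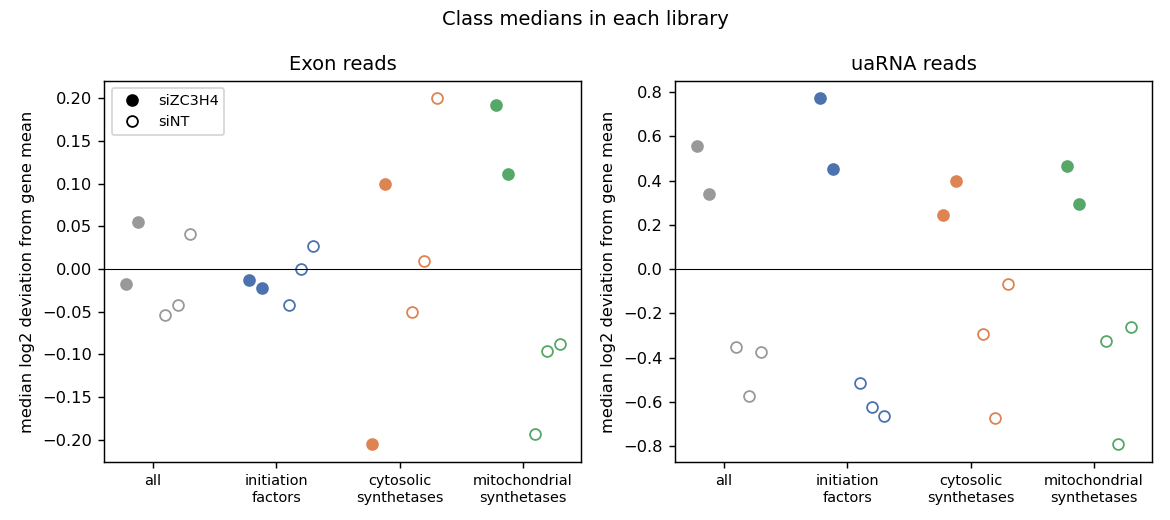
Median log2 deviation from the midpoint between each gene's siZC3H4 and siNT means, for all features tested and for each class. Filled points are siZC3H4 libraries and open points siNT libraries. Exon reads are on the left and uaRNA reads on the right, and the vertical scales differ. For exon reads the siZC3H4 libraries lie above all siNT libraries for mitochondrial synthetases, at 0.19 and 0.11, while for cytosolic synthetases one lies below all siNT libraries, at -0.21, and the other above siNT replicates 1 and 2 but below replicate 3, at 0.10; for uaRNA reads, at the authors' scaling, they lie above all siNT libraries in every class.

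Genes that ATF4 is known to raise under stress were not called by limma without a replicate block. Among the 83, the 12 cytosolic synthetases on that list and Eif4ebp1 gave 0 calls of 13, 1 of 13 above 0, against 52.5% of all genes, and a median log2 fold change of -0.15. That position rested on siZC3H4 replicate 2: without it 9 of 13 were above 0 and the median was 0.07, while without another library 1 to 3 were above 0 and the median was -0.28 to -0.05. At an unadjusted p under 0.05 there was 1 of these 13, on the low side, and edgeR and DESeq2 called 0. Another 18 ATF4 targets and regulators gave 0 calls, with 4 above 0 and a median of -0.13 (11 above 0 and 0.13 without siZC3H4 replicate 2, 9 and 0.0031 without siNT replicate 3); 4 were lower at an unadjusted p under 0.05, and edgeR called 0 and DESeq2 1, Shmt2. Atf4 itself stood at 0.05 ± 0.19 (limma, adjusted p = 0.948), Asns, which makes asparagine, at -0.32 ± 0.12 (0.239), and Shmt2, a mitochondrial enzyme of serine use, at -0.44 ± 0.11 (0.0740). For the eIF2 alpha kinases, which start that response, Eif2ak1 (HRI), Eif2ak2 (PKR), Eif2ak3 (PERK) and Eif2ak4 (GCN2) had log2 fold changes of 0.10 ± 0.15, -0.05 ± 0.27, 0.01 ± 0.14 and -0.01 ± 0.17 (limma, adjusted p of 0.855 or higher).

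Exon reads of the 49 initiation factors had a median log2 fold change of -0.01, 23 of 49 above 0, and 4 higher and 5 lower in both siZC3H4 libraries than in every siNT library (8.16% and 10.2%, against 19.5% and 12.8% of all genes). The eIF2 subunits that deliver the initiator tRNA stood at 0.02 ± 0.21 (Eif2s1), -0.02 ± 0.22 (Eif2s2) and 0.12 ± 0.16 (Eif2s3x). Of the 5 subunits of eIF2B, which recharges eIF2 with GTP, Eif2b4 was lowest of all initiation factors, with 1499 and 1214 exon reads in siZC3H4 libraries against 1772, 1877 and 1491 in siNT libraries. The groups overlapped and the log2 fold change was -0.34 ± 0.15 (limma, adjusted p = 0.326). The 14 eIF3 genes had a median of 0.03 and ranged from -0.19 (Eif3j1) to 0.21 (Eif3a, the scaffold subunit).

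At the cap-binding step 0 of 6 eIF4F genes and cofactors were called, with a median of 0.09, and 0 of 3 genes for eIF4E-binding proteins, with a median of -0.15. Eif4e, Eif4a1 and Eif4a2 were not analysed and are not among the 6. Without siNT replicate 3 limma called Eif4g2, one of the 6, as higher, and 5.42% of all genes rose. Eif4g1, the scaffold of eIF4F, had 17624 and 16879 exon reads in siZC3H4 libraries against 13938, 16186 and 15563 in siNT libraries. Its groups did not overlap, but the log2 fold change of 0.18 ± 0.12 did not pass the test (limma, adjusted p = 0.531). Eif4ebp1 and Eif4ebp2, inhibitors of eIF4E, stood at -0.15 ± 0.12 and -0.29 ± 0.11 (limma, adjusted p = 0.680 and 0.248). Among start codon factors Eif1 stood at -0.11 ± 0.17 and Eif5, which activates GTP hydrolysis by eIF2, at 0.03 ± 0.19. Eif5a stood at 0.03 ± 0.14 and Eif6, which keeps the ribosomal subunits apart, at -0.24 ± 0.13 (limma, adjusted p = 0.430). Standard errors of initiation factors ran from 0.11 to 0.43. A difference larger than its standard error could still miss the threshold, as that of Eif4ebp2 did. Modest changes of a single gene are therefore not excluded.

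Near-identical copies limit some values, since reads may be shared between them. Eif4a3l1, the copy of the exon junction factor Eif4a3, had 27.2 and 14.3 exon reads in siZC3H4 libraries against 21, 11.3 and 12.8 in siNT libraries, while Eif4a3 had 4269 and 3820 against 3998, 4247 and 4066. The highest log2 fold change among initiation factors, 0.42 ± 0.43 for Eif4a3l1, therefore rests on few reads and overlapping groups. Eif3j2 stood at -0.18 ± 0.27 beside -0.19 ± 0.22 for its copy Eif3j1. Of other paralogs, Eif1b stood at 0.07 ± 0.18 beside Eif1, and Eif1a at 0.10 ± 0.23 beside -0.06 ± 0.14 for Eif1ax. Eif5a2 stood at -0.22 ± 0.19 beside Eif5a. Sharing of reads was not tested for any of these genes.

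Lists of other cytosolic translation genes gave 0 calls each with limma and edgeR; DESeq2 called 1 gene in them, Mknk2, which was also the only one at an unadjusted p under 0.05. Synthetase genes outside the naming rule and partners of synthetases (8 genes, such as Farsa, Farsb and Aimp1) had a median exon log2 fold change of 0.04. Elongation and release factors (9 genes) had a median of 0.04, and Eef1a1 and Eef2 stood at 0.00 ± 0.16 and 0.14 ± 0.12. Cofactors of the cap and the start site (12 genes) had a median of 0.01 and ranged from -0.47 ± 0.13 (Mknk2, a kinase of eIF4E; limma, adjusted p = 0.100) to 0.32 ± 0.16 (Pabpc1, the poly(A)-binding protein; 0.386).

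Upstream antisense RNA of the same genes was higher in siZC3H4 libraries at the authors' scaling. Of the 49 regions 45 passed the filter, and of these 32 rose and 0 fell (limma; 33 and 0 at an unadjusted p under 0.05, 33 and 0 by edgeR, 28 and 0 by DESeq2), 71.1% against 62.1% of all 5124 uaRNAs tested that rose and 1.13% that fell. The median log2 fold change was 0.91, beside 0.88 for all uaRNAs, and most uaRNAs of the whole table shifted the same way. By class, 23 of 27 initiation factors rose with a median of 1.06, 5 of 10 cytosolic synthetases with 0.63, and 4 of 8 mitochondrial synthetases with 0.84; with the uaRNA table scaled to itself by the median of ratios the median was 0.19 for initiation factors, -0.26 for cytosolic synthetases and -0.0136 for mitochondrial synthetases, the last being 0.0108 by TMM. Without siZC3H4 replicate 2 the count of genes whose uaRNA rose was 20. In both siZC3H4 libraries 36 of 45 were higher than in every siNT library, against 73.7% of all, and 0 were lower, against 2.11%. Eif3e, Eif3g, Eif3h and Lars2 had regions with fewer than 10 reads on average and were not tested.

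**Figure D4:**
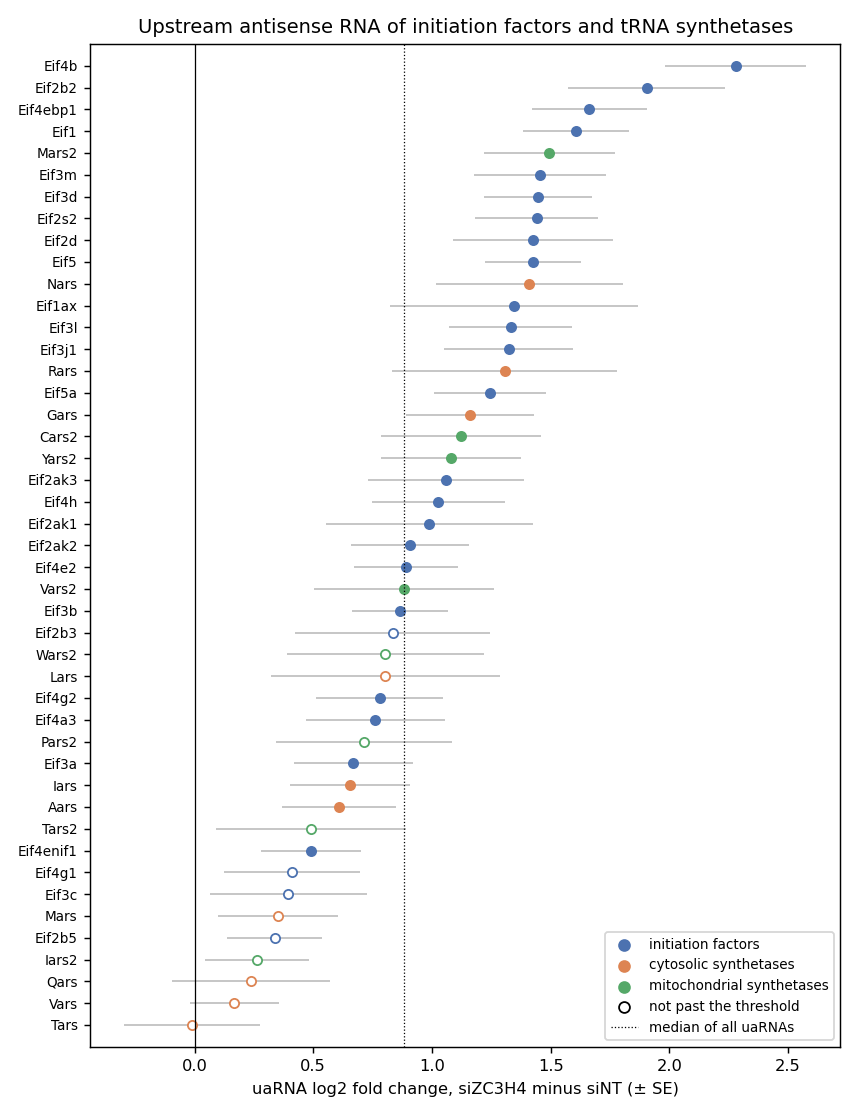
uaRNA log2 fold change, siZC3H4 minus siNT, of the 45 regions tested, with limma's standard error as bars; filled points are past an adjusted p of 0.05, colours give the class and the dotted line is the median of all uaRNAs at 0.88. Values run from Tars at -0.01 to Eif4b at 2.28, and the 8 largest belong to 7 initiation factors and Mars2.

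Eif4b, a cofactor of the eIF4A helicase, had the largest uaRNA rise, with 209 and 166 uaRNA reads in siZC3H4 libraries against 30, 39.1 and 45.2 in siNT libraries. The groups were wide apart, with a log2 fold change of 2.28 ± 0.30 (SE; limma, adjusted p = 4.36e-09). Its exon reads were 14886 and 15773 against 12037, 13899 and 14852, a log2 fold change of 0.18 ± 0.12 (limma, adjusted p = 0.585). Eif2b2, a regulatory subunit of eIF2B, had 104 and 94.6 uaRNA reads in siZC3H4 libraries against 32, 26.1 and 20.5 in siNT libraries, and again the groups were apart (1.90 ± 0.33; limma, adjusted p = 2.28e-06). Eif4ebp1 had 517 and 532 against 196, 120 and 191 (1.66 ± 0.24; limma, adjusted p = 6.51e-08). Eif1 had 1006 and 744 against 280, 278 and 292 (1.61 ± 0.22; limma, adjusted p = 1.72e-08), with siZC3H4 replicate 2 the higher. In exon reads none of Eif4b, Eif2b2, Eif4ebp1 and Eif1 passed the test.

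The next largest rises were those of Mars2, the mitochondrial methionyl enzyme, with 188 and 204 uaRNA reads in siZC3H4 libraries against 82, 52.2 and 75.9 in siNT libraries (1.49 ± 0.28; limma, adjusted p = 7.58e-06), and of the eIF3 subunits Eif3m (1.46 ± 0.28) and Eif3d (1.45 ± 0.23). Eif2s2, the beta subunit of eIF2, had 286 and 270 against 120, 82.6 and 106 (1.44 ± 0.26; limma, adjusted p = 4.21e-06). All 3 tested start codon factors rose, namely Eif1, Eif5 (1.43 ± 0.20) and Eif1ax (1.34 ± 0.52). The same held for all 3 tested eIF2 alpha kinases, Eif2ak1 (0.99 ± 0.44), Eif2ak2 (0.91 ± 0.25) and Eif2ak3 (1.06 ± 0.33), and for 6 of 7 tested eIF3 genes, with Eif3c the exception (0.40 ± 0.33; limma, adjusted p = 0.285) and 62.1% of all uaRNAs rising, so these small counts are read as close to the background. Of the 32 calls 18 held in all 5 fits with a library left out. The adjusted p of Eif2ak1 was 0.0434, and the call was lost in 4 of 5 fits with a library left out (limma, adjusted p up to 0.176). Eif5a rose by 1.24 ± 0.24, and Eif4g1 did not pass (0.41 ± 0.29; limma, adjusted p = 0.200).

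**Figure D5:**
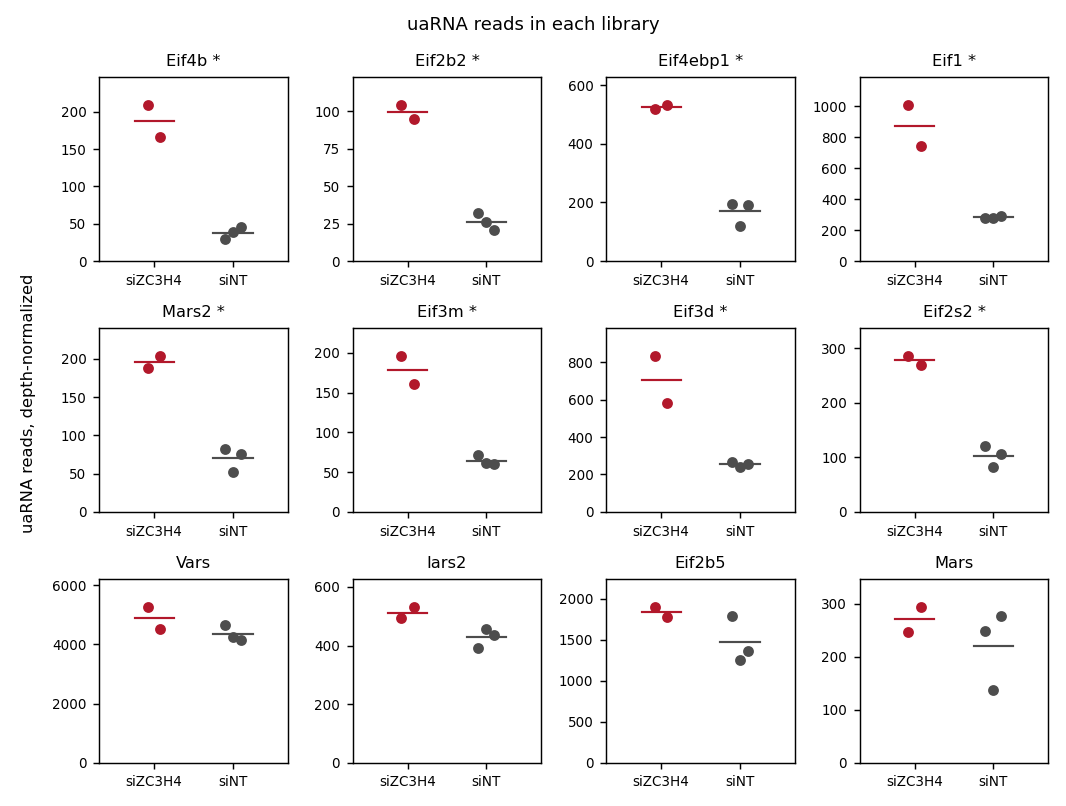
Depth-normalized uaRNA reads in the siZC3H4 libraries (left, 2 points) and the siNT libraries (right, 3 points) of the 8 genes with the largest rises and of 4 of the 5 genes with the smallest differences at a mean of 100 or more, with a line at each group's mean; an asterisk marks an adjusted p under 0.05. The groups stand apart in the 8 upper panels, as in Eif4b with 209 and 166 against 30 to 45.2, and overlap in Vars, Eif2b5 and Mars of the lower row.

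Several uaRNAs with many reads did not rise. Vars, the cytosolic valyl enzyme, had 5266 and 4533 uaRNA reads in siZC3H4 libraries against 4658, 4245 and 4159 in siNT libraries. The groups overlapped and the log2 fold change was 0.17 ± 0.19 (limma, adjusted p = 0.424). Eif2b5, the catalytic subunit of eIF2B, had 1899 and 1771 against 1792, 1249 and 1363, also overlapping (0.34 ± 0.20; limma, adjusted p = 0.131). Mars, the cytosolic methionyl enzyme, stood at 0.35 ± 0.25 (limma, adjusted p = 0.218), and Iars2 at the value given above. Eif4enif1, the carrier that takes eIF4E to the nucleus, did pass, with 881 and 784 against 636, 515 and 632 (0.49 ± 0.21; limma, adjusted p = 0.0389), although its adjusted p was 0.0510 to 0.198 with any library left out and its sign turned when the uaRNA table was scaled to itself (-0.40 by the median of ratios, -0.38 by TMM). Tars, the cytosolic threonyl enzyme, had 76.4 and 85.1 uaRNA reads in siZC3H4 libraries against 88, 77.4 and 78.5 in siNT libraries. Its groups overlapped, and at -0.01 ± 0.29 it was the only one of the 45 below 0 (limma, adjusted p = 0.978), against 91.5% of all uaRNAs above 0.

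Among cytosolic synthetases the uaRNAs of Nars (asparaginyl, 1.41 ± 0.39), Rars (arginyl, 1.31 ± 0.47), Gars (glycyl, 1.16 ± 0.27), Iars (isoleucyl, 0.65 ± 0.25) and Aars (alanyl, 0.61 ± 0.24) rose. For Gars the reads were 223 and 160 in siZC3H4 libraries against 78, 76.5 and 99 in siNT libraries, while its exon reads were lower in both siZC3H4 libraries than in every siNT library. Among mitochondrial synthetases Mars2, Cars2 (cysteinyl, 1.12 ± 0.34), Yars2 (tyrosyl, 1.08 ± 0.30) and Vars2 (valyl, 0.88 ± 0.38) rose, and all 8 tested were higher in both siZC3H4 libraries than in every siNT library, as were 73.7% of all uaRNAs. The calls of Iars, Rars and Vars2 held in 2 of 5 fits with a library left out and that of Aars in 3 of 5. Per library the median uaRNA deviation was 0.77 and 0.45 in siZC3H4 libraries against -0.51, -0.62 and -0.66 in siNT libraries for initiation factors, and 0.25 and 0.40 against -0.29, -0.67 and -0.07 for cytosolic synthetases. For mitochondrial synthetases it was 0.47 and 0.29 against -0.33, -0.79 and -0.26.

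Scaling changes how these rises read. The authors' factors leave the median of all uaRNAs 0.88 higher in siZC3H4 libraries; when each uaRNA table is scaled to itself by the median of ratios that shift is 0.01, and 6 of the 45 rose (Eif1, Eif2b2, Eif3d, Eif4b, Eif4ebp1 and Eif5) while 4 fell (Eif2b5, Iars2, Tars and Vars), against 10.5% and 11.5% of all uaRNAs. Relative to the shift the class medians were then 0.19 for initiation factors, -0.26 for cytosolic synthetases and -0.01 for mitochondrial synthetases. The others did not pass in either direction relative to the whole table.

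The ratio of uaRNA to exon reads within a library does not depend on its depth factor. This ratio rose for 28 of the 45 genes and fell for 0 (limma; 29 and 0 at an unadjusted p under 0.05), against 56.5% and 1.65% of 5106 pairs, with 43 of 45 above 0 against 89.3%. The 28 were 20 of 27 initiation factors, 5 of 10 cytosolic synthetases and 3 of 8 mitochondrial synthetases. Eif4b had a log2 ratio of -6.15 and -6.56 in siZC3H4 libraries against -8.60, -8.44 and -8.33 in siNT libraries, a difference of 2.10 ± 0.33 (limma, adjusted p = 4.65e-07). Eif2b2 had -3.50 and -3.64 against -4.98, -5.39 and -5.77, and Eif4ebp1 -3.35 and -3.56 against -4.98, -5.64 and -5.17, each a difference of 1.81 (SE 0.36 and 0.27). In each the groups were apart. Vars had -0.09 and -0.19 against 0.11, -0.26 and -0.10, overlapping, with a difference of -0.06 ± 0.24 (limma, adjusted p = 0.847). Without siZC3H4 replicate 2 the count of genes whose ratio rose was 15.

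The remaining genes whose ratio rose included Eif1 (1.71 ± 0.26), Eif3j1 (1.51 ± 0.31), Eif2d (1.50 ± 0.37), Eif2s2 (1.46 ± 0.29), Eif3d (1.43 ± 0.26), Eif3m (1.41 ± 0.32), Eif1ax (1.41 ± 0.53), Eif5 (1.39 ± 0.25), Eif3l (1.27 ± 0.28) and Eif5a (1.22 ± 0.26). The uaRNA of Eif1ax passed the filter only through the siZC3H4 libraries, as given above. Smaller differences were those of Eif2ak3 (1.05 ± 0.36), Eif4h (1.03 ± 0.31), Eif2b3 (0.98 ± 0.44), Eif4e2 (0.97 ± 0.25), Eif2ak2 (0.96 ± 0.29), Eif3b (0.95 ± 0.24) and Eif4a3 (0.78 ± 0.32). Of the synthetases Nars (1.60 ± 0.42), Rars (1.52 ± 0.49), Gars (1.39 ± 0.30), Mars2 (1.38 ± 0.31), Cars2 (1.02 ± 0.38), Yars2 (0.99 ± 0.33), Iars (0.71 ± 0.28) and Aars (0.69 ± 0.27) rose in this ratio. Of the 28 calls 15 held in all 5 fits with a library left out, against 1 of 5 for Aars and Eif2b3, 2 of 5 for Cars2 and Iars, and 3 of 5 for Eif1ax, Eif4a3 and Rars. Eif4a3 stood at 0.14 (limma, adjusted p = 0.801) without siZC3H4 replicate 2 and at 1.43 without siZC3H4 replicate 3.

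Whether a uaRNA region was listed for a gene went with the layout of its promoter. A gene starting on the opposite strand within 1000 bases was found for 22 of the 83 genes (26.5%), against 16.6% of all protein-coding genes. None of those 22 had a uaRNA region (0 of 22), while 49 of the other 61 did (80.3%). The regions are those the authors listed, and how they were chosen was not examined. A gene without a region has no antisense value here, so these counts do not show that antisense transcription was absent. Over all protein-coding genes 51 of 1999 with such a neighbour had a region, against 58.1% of those without. The neighbours included the cytosolic and mitochondrial histidyl enzymes, Hars and Hars2, which start 111 bases apart on opposite strands and stood at -0.05 ± 0.15 and 0.04 ± 0.12 in exon reads. Sars2 starts 291 bases from Mrps12, a mitochondrial ribosomal protein gene (-0.05; limma, adjusted p = 0.949). Eif1b starts 52 bases from the noncoding gene D830035M03Rik, which had a mean of 43.6 reads in siZC3H4 and 14.6 in siNT libraries (1.55; limma, adjusted p = 0.0578). Eif6 starts 368 bases from the noncoding Gm16098, at 35.2 against 13.3 reads (1.35; limma, adjusted p = 0.191). These are examples from the 22, and neither noncoding gene passed the test. Other neighbours stood on either side of 0, such as Map4k1 beside Eif3k (0.54, limma, adjusted p = 0.130) and Serp1 beside Eif2a (-0.17, adjusted p = 0.881). Of the mitochondrial synthetases that stood apart in exon reads, Ears2, Nars2 and Sars2 had such a neighbour. A uaRNA region was listed for Iars2, Vars2, Tars2, Pars2 and Mars2.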

How the data were processed

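TT-seq libraries of mouse embryonic stem cells were analysed, 2 siZC3H4 and 3 siNT, and 3 DMSO and 3 dTAG-13 samples were left aside. The submitters' processing notes name cutadapt 1.14, STAR, featureCounts and DESeq2, with builds mm10 and dm6. The authors deposited depth-normalized signal over exons and over uaRNA regions; symbols, types, transcript lengths and coordinates of genes are per the file headers. Each deposited signal value equals a read count over the library's depth factor, 1.767 and 1.046 for siZC3H4 replicates 2 and 3, and 1, 1.15 and 1.172 for siNT replicates 1, 2 and 3; 100% of values came out whole within 0.01 reads. For siNT replicate 1 the deposited values are therefore counts. The sources used here do not state their origin. Every pair of replicates exceeded counting noise (chi-square over its degrees of freedom at least 4.74 in uaRNAs and 16.8 in exons), so none was merged.

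Features with a mean of 10 or more were tested on log2(value + 1), a scale that understates changes of low features, with limma 3.58.1 (lmFit, eBayes with trend) in R 4.3.3, siZC3H4 minus siNT. P-values were adjusted by Benjamini-Hochberg over the whole table, with a threshold of 0.05. The fit was also run on simulated counts drawn independently for each library, a setting that does not test spread shared between libraries. The ratio fit used log2(uaRNA + 1) minus log2(exon + 1). edgeR 4.0.16 and DESeq2 1.42.0 on the recovered reads were alternatives; over all features edgeR called 345 genes higher and 19 lower, and 3251 uaRNAs higher and 63 lower. Other alternatives were pseudocounts of 0.5 and 5, no filter, a mean of 50 or more, scaling each table to itself (median of ratios or TMM), a replicate block and each library left out. Promoters came from RefSeq (GRCm38.p6).

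Genes and lists were chosen with earlier results of these data known. Named with values are all genes past the threshold in exon reads or in the ratio; for uaRNAs the 8 largest rises and the 5 smallest differences at a mean of 100 or more; the 3 highest levels per class; subunits of eIF2 and eIF4F, eIF2 alpha kinases, eIF4E-binding proteins, Eif1, Eif5, Eif6 and Eif5a; paralogs; genes with a neighbour on the opposite strand; and examples of a class. Some of the genes this names are counted in the totals and not reported singly here. Among them are Eif1ad, Eif2a, Eif2b1 and Eif3i, which have a neighbour on the opposite strand.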

Additional observations from a re-analysis of the deposited data

How the results depend on the processing

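The 2 exon calls became 1 without a filter (Ears2), 4 with DESeq2 (Tars2 among those added) and 0 to 4 with a library left out, at 0 without siNT replicate 1, siZC3H4 replicate 2 or siZC3H4 replicate 3. With the replicate number as a block they became 13, of which 8 rose (among them Ears2, Iars2, Nars2, Pars2, Sars2, Tars2 and Vars2) and 5 fell (Eif2b4, Eif4ebp2, Rars, Sars and Wars), beside 12.3% and 6.65% of all genes; the cause was not tested. The groups share the numbers 2 and 3 and the labels do not say what a number stands for; the differences between replicates 2 and 3 correlated across genes at 0.621 for exons and 0.444 for uaRNAs, from 1 difference per group. The block left uaRNA calls at 32 and gave 29 calls of the ratio. The median exon log2 fold change of initiation factors was -0.0545 with the block and -0.055 with the median of ratios, and -0.0545 to 0.0117 with a library left out; that of cytosolic synthetases was -0.257 to 0.0646, that of mitochondrial synthetases 0.22 to 0.32, and their difference 0.16 to 0.56. uaRNA calls were 20 to 31 and ratio calls 15 to 27 with a library left out, lowest without siZC3H4 replicate 2, and the uaRNA median of initiation factors was 0.96 to 1.31.

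Scaling the uaRNA table to itself gave 10 calls by the median of ratios and 10 by TMM. The uaRNA medians were then 0.19 and 0.21 for initiation factors, -0.26 and -0.23 for cytosolic synthetases, and -0.0136 and 0.0108 for mitochondrial synthetases. By the median of ratios 18 of 27 initiation factors, 3 of 10 cytosolic and 4 of 8 mitochondrial synthetases were above 0. By TMM these counts were 20, 4 and 4, against 27, 9 and 8 at the authors' scaling. Among the genes whose sign turned were Vars (-0.72 and -0.70), Iars2 (-0.63 and -0.60), Eif2b5 (-0.55 and -0.53) and Eif4enif1 (-0.40 and -0.38). Such turns follow by construction from a scaling that sets the median shift near 0. With 2 siZC3H4 libraries and exon standard errors of 0.11 or more, small changes of single genes could not be resolved, and uaRNAs near 10 reads are limited by counting.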
